A study of Bos taurus with 43 samples.

Results

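The 6 genes described here are ANKRD35, BLVRB, MEN1, NAT14, S100B and SIRT3. They are the genes that the study also measured by quantitative reverse transcription PCR (qRT-PCR) and that had a higher array signal in a class of animals called B than in a class called A. Their probes are 6 of the 21475 gene probes on the array. How the study picked genes for the PCR is not given in the sources used here. In the study, PCR and array values correlated positively for each gene, least for MEN1 and BLVRB. Its PCR fold changes between classes B and A were smaller than its array fold changes for all but NAT14. Classes A and B came from a principal component analysis (PCA) of the same arrays, without the Holstein controls. The difference between classes A and B defines this set of genes and was not tested. BLVRB and ANKRD35, 2 of the 6, had ranges in class B wholly above those in class A, as did 2.3% of the 16354 probes that passed a filter on dim signals. The positive and cross-breed control arrays belong to these classes, and the Holstein arrays do not.

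Biceps brachii muscle of 43 male cattle was collected after slaughter and hybridized with 1 animal per array. A first set of 4 animals (S21, S54, S56 and S57) is labelled as suspected of corticosteroid treatment, and the study's urine and thymus tests classed them as positive. A second set of 21 commercial animals has unknown treatment. Both sets were beef cattle of 12 to 24 months, mostly Charolais, Limousine or their crosses. The study found residues of dexamethasone, a synthetic corticosteroid, in the urine of the positive animals, and the dose and time of any treatment are not given in the sources used here. The negative controls came from earlier controlled experiments: 5 cross-breed bulls (Charolais × Limousine, 18 months, K7, K8, K10, K11 and K12) and 13 Holstein bulls (13 to 18 months). The study's PCA of all 43 arrays showed 4 groups of animals. Group 1 held the 13 Holstein controls, and group 2 held the 5 cross-breed controls and unknown animals 263, 265, 266, 269 and 270. Group 3 held the 4 positive animals and unknown animals 29, 39, 50, 52, 60, 61, 78, 79 and 81. Group 4 held unknown animals 36, 37, 38, 49, 51, 58 and 76, of which only animal 76 fell into class B. These PCA groups were read by animal name, are themselves built on expression, and are described below by median and range without a test.

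The arrays of the positive, unknown and Holstein animals were all read on scanner 3 with version 9.5.1.1 of the scanner software. The cross-breed arrays were read on scanners 1 and 2 with version 9.1.3.1 (K7 and K8) or 9.5.3.1 (K10, K11 and K12). The positive arrays lay on slides 9 and 10, which also held unknown animals 50, 78, 79 and 81. No slide or scan day was shared between the positive or unknown animals and either set of controls, or between the control sets. Treatment, breed and hybridization cannot be told apart in those comparisons. The share of spots well above background was 74.95% to 89.4% on the positive arrays, against 62.92% to 73.65% on cross-breed and 62.34% to 73.22% on Holstein control arrays, and was lowest in unknown animal 79 (40.21%) and highest in unknown animal 50 (97.29%). The 5 unknown animals 29, 39, 52, 61 and 76 stood apart with spike-in RNA signals of 7.76 to 8.43 on the log2 scale, where the other arrays had at least 11.3.

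SIRT3 encodes the main NAD-dependent protein deacetylase of mitochondria, which acts on enzymes of fatty acid oxidation, acetate use and antioxidant defence. BLVRB encodes biliverdin reductase B, a cytosolic enzyme that reduces biliverdin and flavins with NADPH and stands near the end of haem breakdown. S100B is a small calcium-binding protein best known from glia, including the Schwann cells of nerves, and also present in adipocytes and chondrocytes. MEN1 encodes menin, a nuclear scaffold that joins histone methyltransferases of the KMT2A family to chromatin and binds the transcription factor JUND. NAT14 is named as a putative N-acetyltransferase, and ANKRD35 for its ankyrin repeats, a fold that mediates contacts between proteins. In a homogenate of whole muscle, RNA from fibres and from nerve, fat and vessel cells is measured together, so that more cells of a type and more RNA per cell cannot be told apart.

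The qRT-PCR primers of the 6 genes are shown because they tie the PCR assay and the array probe to the same transcript: for 6 of 6 genes, the transcript accession given for the primers was that of the array probe. Each primer is written 5′ to 3′, with its last 5 bases, the end that the polymerase extends, in capitals.

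SIRT3 forward: ctggcctcgtattccAGGTG

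SIRT3 reverse: ccccctccagtgtcaCTTGA

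BLVRB forward: aatagggctctggccTGTCC

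BLVRB reverse: aggtttattgccccctTCCTT

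S100B forward: tcaggacgccgaaaCCAGA

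S100B reverse: cggccttctctaactcagACATG

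MEN1 forward: gcaatgtgcgcgaaGCTCT

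MEN1 reverse: cacggcagtagttgtagtCCTGG

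NAT14 forward: gctgaaggctggcGTGAA

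NAT14 reverse: aaggaggccaggACGAA

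ANKRD35 forward: cctcaagtgtgctcctctTGTGT

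ANKRD35 reverse: gggtgtacgtccatcattATCCA

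The primers were 17 to 23 bases long. The accession of the primers of the qRT-PCR reference gene matched the array probe of MRPS5, a protein of the mitochondrial ribosome, and this probe was examined as a reference here. The log2 signal of MRPS5 averaged 13.42 ± 0.39 (SD) over the 4 positive animals, 13.22 ± 0.25 over the 5 cross-breed controls and 12.94 ± 0.37 over the 13 Holstein controls.

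Each of the 6 genes had 1 probe, printed as 2 spots, and every one of these probes was well above background and unsaturated on all 43 arrays. The median difference between the 2 spots ran from 0.05 for MEN1 to 0.13 for ANKRD35 on the log2 scale. S100B in animal 38 was the exception, with spots at 12.07 and 14.64, and its reported value is that of the lower spot because the scanner software marked the other as an outlier. All values below are normalized log2 signals, where a step of 1 is a factor of 2, and the signals of different probes are not compared with each other.

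SIRT3 separated the animals into high and low without overlap. Its log2 signal was 14.68 in S21, 14.49 in S54, 14.31 in S56 and 14.57 in S57, the positive animals. In the cross-breed controls it was 13.33 in K7, 13.08 in K8, 13.19 in K10, 13.06 in K11 and 13.55 in K12. The lowest positive animal thus lay above the highest cross-breed control, and the difference of means was 1.27 (SE 0.15), a fold change (FC) of 2.41 (limma, adjusted p = 8.63e-05). The 13 Holstein controls ranged from 12.22 in C18 to 13.31 in C45, with a median of 13.12, at the level of the cross-breed controls. The 9 unknown animals of group 3 spanned only 14.32 to 14.58, and the 7 of group 4 reached 14.47 to 14.95 with a median of 14.63, beside a median of 14.53 in the positive animals. Which of these medians was higher depended on the scaling, since with scaling to the 75th percentile they were 14.50 in group 4 and 14.77 in the positive animals. The 5 unknown animals of group 2 lay at 12.97 to 13.22, with the controls.

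BLVRB was high in the positive animals and in group 3, and intermediate in group 4. The positive animals had 14.48 (S21), 14.22 (S54), 14.33 (S56) and 14.56 (S57). The cross-breed controls had 12.75 (K7), 12.67 (K8), 12.97 (K10), 13.11 (K11) and 13.19 (K12), and the FC of 2.76 had an adjusted p of 4.40e-05 in limma (log2 difference 1.46, SE 0.16). The Holstein controls ranged from 12.85 to 13.53 with a median of 13.32, none as high as a positive animal. In group 3 the range was 13.90 to 14.70. In group 4 animal 76 had 14.23 while the other 6 lay between 12.56 (animal 51) and 13.50 (animal 36), within or below the spread of the controls. Group 2 was the lowest of all, with 11.96 to 12.44 in its unknown animals, under every cross-breed control.

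S100B differed most between positive animals and cross-breed controls among the 6 genes. It was 12.69 in S21, 12.77 in S54, 12.53 in S56 and 12.57 in S57. The cross-breed controls held 10.25 (K7), 10.41 (K8), 9.40 (K10), 10.57 (K11) and 10.16 (K12), more than a factor of 2 below, and the FC was 5.59 (log2 difference 2.48, SE 0.22, limma adjusted p = 1.42e-05). In the Holstein controls S100B ranged from 10.00 in C18 to 11.37 in C22, with a median of 10.76. The unknown animals of group 3 covered the widest range, 11.46 in animal 50 to 13.43 in animal 39, and those of group 4 ran from 11.73 to 12.57. All 16 of these animals were above every control, although animal 50 and Holstein C22 lay close together. Group 2 lay at 9.53 to 10.69, among the cross-breed controls.

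MEN1 was high in the positive animals and in group 3, and lower in most of group 4. The positive animals had 10.74 (S21), 10.86 (S54), 10.84 (S56) and 10.83 (S57), and the cross-breed controls 9.55 (K7), 9.52 (K8), 9.59 (K10), 9.73 (K11) and 9.71 (K12). The FC was 2.29, with a 95% confidence interval of 0.93 to 1.47 on the log2 scale (SE 0.12, limma adjusted p = 3.12e-05). The Holstein controls ranged from 9.40 in C48 to 10.48 in C17, with a median of 9.84. Group 3 lay at 10.22 to 11.10, and its lowest animal, 52, was under the highest Holstein. In group 4, animal 76 again resembled group 3 with 10.80, while the other 6 had 9.70 to 10.30, within the range of the Holstein controls. Of the 7, 6 lay above the highest cross-breed control. Group 2 had 9.11 to 9.83.

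NAT14 was tight in the positive animals, at 12.49 (S21), 12.42 (S54), 12.52 (S56) and 12.53 (S57). The cross-breed controls had 11.23 (K7), 10.73 (K8), 10.69 (K10), 11.20 (K11) and 11.27 (K12), a FC of 2.76 (log2 difference 1.47, SE 0.17, limma adjusted p = 6.14e-05). The Holstein controls extended from 10.85 to 11.85 with a median of 11.43. In group 3 the range of 11.74 to 12.75 touched the Holstein range, because animal 52 had 11.74 and Holstein C24 had 11.85. Animals 52 and 61, at the 2 ends of this range, had low spike-in signals. The other 8 animals besides 52 lay above every Holstein control. Group 4 was at 12.12 to 12.45 with the same median as group 3, 12.21, and group 2 at 10.73 to 11.18.

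ANKRD35 was 11.82 in S21, 11.40 in S54, 11.50 in S56 and 11.63 in S57. In the cross-breed controls it was 9.92 (K7), 10.11 (K8), 9.65 (K10), 10.15 (K11) and 10.35 (K12), and the FC was 2.94 (log2 difference 1.56, SE 0.17, limma adjusted p = 5.14e-05). The Holstein controls had 8.94 to 10.15 with a median of 9.78. Group 3 ranged from 11.17 to 12.17, group 4 from 10.61 to 11.35 and group 2 from 8.68 to 9.19. By their medians the groups followed each other in steps for this gene, although ranges overlapped, among them those of groups 3 and 4. The unknown animals of group 2 lay below all 5 cross-breed controls.

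**Figure D1:**
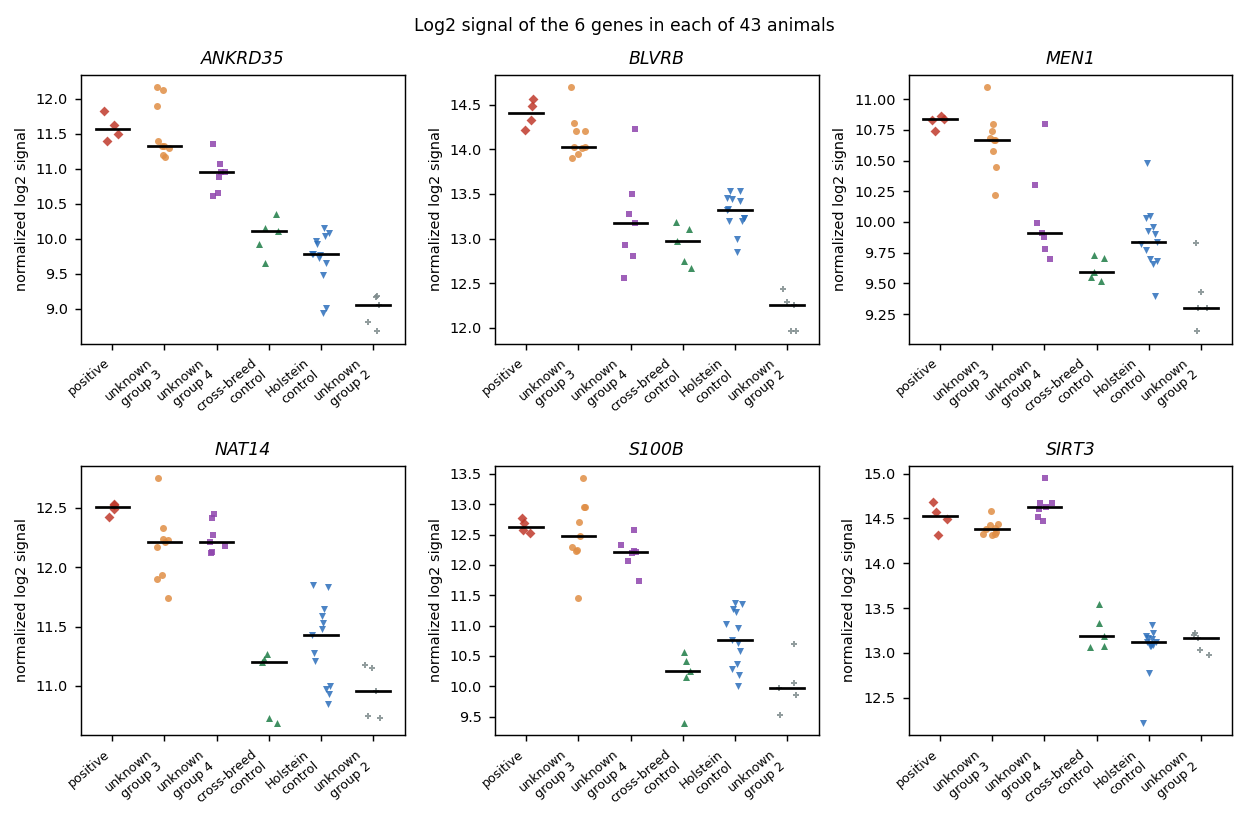
Normalized log2 signal (vertical axes, different for each gene) of the 6 genes in 43 animals, with 1 point per animal, black lines at the medians and the unknown animals split by the study's PCA group. SIRT3, S100B and ANKRD35 are higher in the 3 sets on the left than in the 3 on the right without overlap, while for BLVRB and MEN1 the range of group 4 overlaps those of both sets of controls, and 6 of its 7 animals lie above all cross-breed controls for MEN1.

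When positive animals were set against cross-breed controls, 6 of 6 genes passed an adjusted p of 0.05 and a FC of 2, and the ranges of none overlapped. The background was high: 25.5% of the 16354 probes tested were called higher in the positive animals, 14.4% with a FC of at least 2, and 21.7% had non-overlapping ranges with the positive animals higher. Since these arrays are part of the classes B and A that define the set, the count describes the genes and is no independent support. By size of increase, S100B ranked 443 and MEN1 ranked 1934 among the 16354 probes, with the other 4 between them.

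The Holstein animals are controls outside classes A and B, although the positive animals are part of class B. Against them, 6 of 6 genes were again called higher in the positive animals, with no overlap of ranges and a FC of at least 2 for 5 genes. The background was 17.7% of probes called higher, 8.40% with a FC of at least 2, and 8.43% with ranges that did not overlap. ANKRD35 had the largest FC, 3.66 (log2 difference 1.87, SE 0.20, limma adjusted p = 1.86e-06). S100B followed with 3.64 (adjusted p = 1.28e-05, limma) and SIRT3 with 2.76 (adjusted p = 1.94e-06, limma). NAT14 had 2.20, BLVRB 2.16 and MEN1 1.93, with limma adjusted p of 0.000108, 3.63e-06 and 7.07e-05. The lead of ANKRD35 over S100B depended on the normalization. With loess run over all pairs of arrays S100B had a log2 difference of 2.15, while no other normalization took ANKRD35 above 1.89. Relative to the MRPS5 probe, only ANKRD35, S100B and SIRT3 were called, and 3 of the 6 were not.

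The 2 sets of controls were compared to see how far the genes differ between untreated animals of different origin. BLVRB was higher in Holstein than in cross-breed controls by 0.35 (SE 0.12, FC 1.28, limma adjusted p = 0.0241), and S100B by 0.62 (SE 0.24, FC 1.54, adjusted p = 0.0386 in limma). The other 4 were not called: the log2 differences were 0.33 for NAT14, 0.24 for MEN1, -0.20 for SIRT3 and -0.31 for ANKRD35, with 95% confidence intervals that all included 0 and reached at most 0.70 in size. Thus 2 of 6 genes were called, against 48.4% of all probes in either direction. Neither call was firm, since the count fell to 0 without K7 and to 1 without K8, K10 or K12. ANKRD35, not called here, passed in 1 of the other settings tried (limma adjusted p = 0.0421).

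The 21 unknown animals taken as 1 group were higher than the cross-breed controls for S100B (log2 difference 1.66, SE 0.50, FC 3.17, limma adjusted p = 0.0173), SIRT3 (0.93, SE 0.28, FC 1.91, adjusted p = 0.0189) and NAT14 (0.88, SE 0.27, FC 1.85, adjusted p = 0.0201), so that 3 of 6 genes were called where 11.4% of probes were called higher. ANKRD35, MEN1 and BLVRB, at 0.69, 0.54 and 0.43, were not called. All of these arrays are part of classes A and B, so the count of 3 is no independent support. The unknown and cross-breed arrays shared no slide, scan day or scanner. The unknown animals fall into separate sets, and a mean over them hides this. Without K8 or K10 only 1 of the 6 was called, and without 5 unknown animals with low spike-in signals none was.

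The positive animals were higher than the unknown animals by 0.34 (SIRT3) to 1.03 (BLVRB), and limma called 0 of 6 genes, with 2 at an unadjusted p under 0.05. The background was 0.0489% of probes called in either direction, which is 8 probes, and 0 to 2 probes were called when any 1 of the 4 positive animals was left out. On slides 9 and 10, where the positive animals lay beside unknown animals 50, 78, 79 and 81 of group 3, the difference could be taken within slides. There it ranged from -0.015 for MEN1 to 0.36 for S100B (SE 0.27), and 0 of 6 genes and 0 of 16354 probes were called, with 1 gene and 1873 probes at an unadjusted p under 0.05. Animals 79 and 50 had the lowest and highest share of spots well above background in the series. On these slides animal 79 had the highest MEN1 signal (11.10) and animal 50 the lowest S100B signal (11.46). A fit without them was not run. The 95% confidence intervals of these within-slide differences reached up to 0.97 for S100B and 0.42 for SIRT3.

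**Figure D2:**
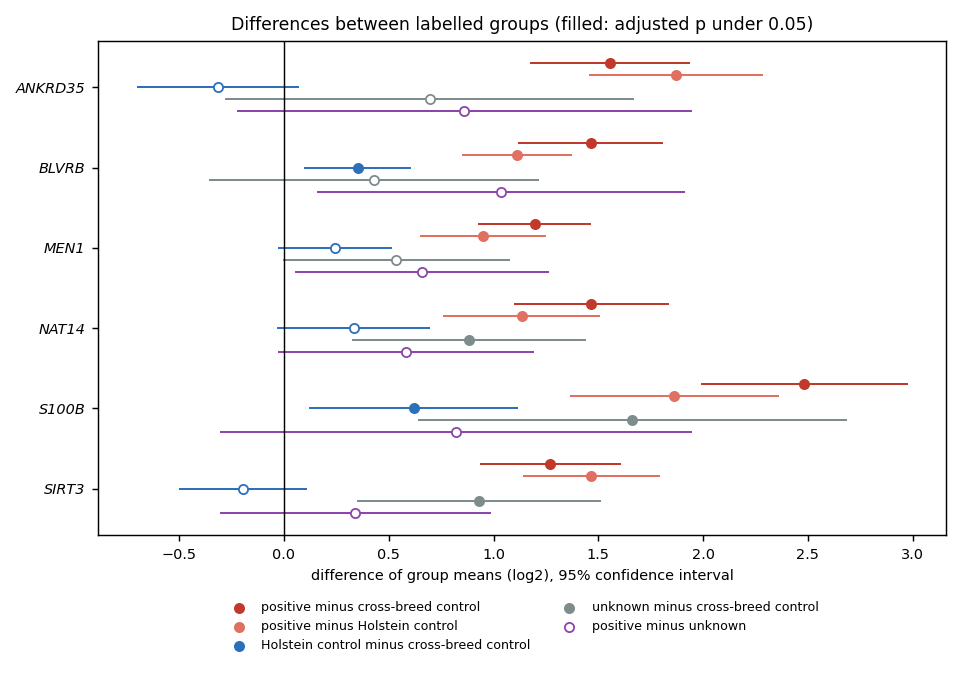
Difference of group means on the log2 scale (points) with 95% confidence intervals (bars) for the 6 genes in 5 comparisons of labelled groups; filled points have a limma adjusted p under 0.05. Positive animals exceed both sets of controls for all 6 genes, by 0.95 (MEN1, against Holstein controls) to 2.48 (S100B, against cross-breed controls), and none of the 6 was called against the unknown animals.

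Group 4 set the genes apart from each other. Its animals, except 76, belong to class A in the study's analysis without Holsteins, the class in which the 6 genes were lower. On a scale from the median of the unknown animals of group 2 (0%) to that of group 3 (100%), the median of group 4 stood at 121% for SIRT3, 100.5% for NAT14, 89.4% for S100B and 83.3% for ANKRD35, but at 51.5% for BLVRB and 44.6% for MEN1. Under 6 other normalizations, no normalization among them, these positions ranged from 97.7% to 119.8% for SIRT3, 80.9% to 125.9% for NAT14, 79.9% to 93.5% for S100B, 74.2% to 87.9% for ANKRD35, 43.5% to 51.5% for BLVRB and 43.8% to 58.7% for MEN1. The order of these 4 genes above the other 2 was kept under every one of the normalizations tried.

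The 20 animals of groups 3 and 4 lay above the 23 of groups 1 and 2 without overlap for 3 of the 6 genes, SIRT3, S100B and ANKRD35, where the background was 0.281% of probes. Group 3 is part of class B and group 2 of class A, which define the set, so the count is no independent support. The gap was widest for SIRT3, from 13.55 in K12 to 14.31 in S56. For ANKRD35 it ran from 10.35 in K12 to 10.61 in animal 49. Without normalization the ranges of all 6 genes overlapped. With scaling to the 75th percentile those of S100B overlapped too, while NAT14 separated these sets as well with loess run over all pairs of arrays and with normexp background correction, 2 of 7 settings. The positive animals lay above group 4 without overlap for 1 of 6 genes, ANKRD35, against 10.4% of probes.

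The unknown animals of group 4 lay wholly above those of group 2 for 5 of 6 genes, all but MEN1, with a background of 8.28% of probes. They lay wholly above the cross-breed controls for 4 of 6 (8.25% of probes) and above the Holstein controls for 4 of 6 (3.52%), with BLVRB and MEN1 as the exceptions in both. The unknown animals of group 3 were wholly above the Holstein controls for 4 of 6 genes (1.75% of probes), with NAT14 and MEN1 as the exceptions, and above group 4 for 0 of 6 (1.05%). For both exceptions the lowest animal of group 3 was 52, and the highest of group 4 was 76 for all genes but SIRT3. Both animals had low spike-in signals. Without 76, group 4 reached 13.50 for BLVRB and 11.07 for ANKRD35. The lowest animals of group 3 had 13.90 and 11.17. Counts over all probes without these arrays were not made. Groups 2, 3 and 4 are part of classes A and B, so none of these counts is independent support.

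Slide 6 held animals of groups 2 and 4 side by side. On it SIRT3 was 13.22 in animal 269 of group 2 and 14.47 and 14.95 in animals 36 and 58 of group 4. S100B was 9.86 against 11.73 and 12.20, NAT14 10.75 against 12.27 and 12.41, and ANKRD35 9.17 against 10.66 and 11.07. BLVRB was 11.96 against 13.50 and 13.17, and MEN1 9.30 against 9.99 and 10.30. For each of the 6 genes, the animal of group 2 was thus the lowest on this shared slide.

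**Figure D3:**
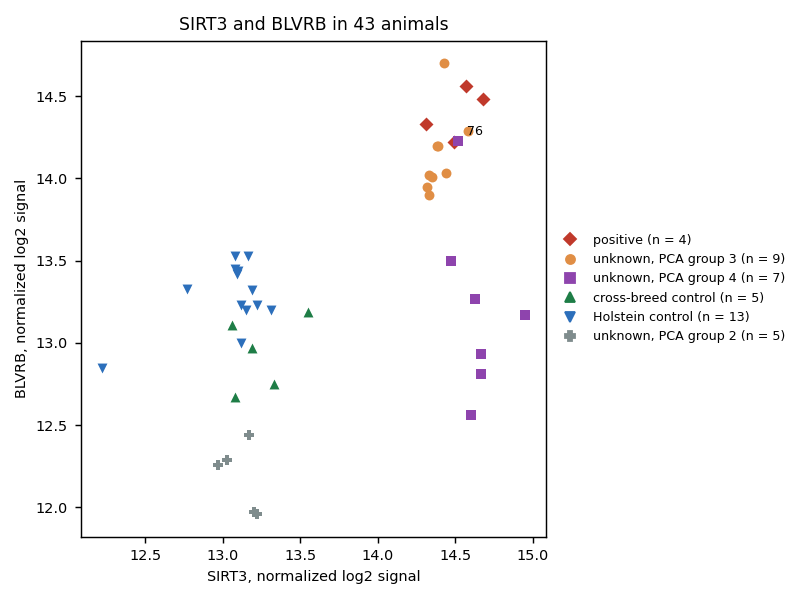
Normalized log2 signal of SIRT3 (horizontal) against BLVRB (vertical) in 43 animals, with 1 point per animal. The purple squares of group 4 have SIRT3 signals of 14.47 to 14.95, as high as the positive animals, and BLVRB signals no higher than the highest Holstein control in 6 of 7 animals, all but 76.

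Group 2 was not uniform either. Its 5 unknown animals were below every cross-breed control for ANKRD35 and BLVRB, with medians of 9.05 against 10.11 and of 12.26 against 12.97, while for MEN1, NAT14, S100B and SIRT3 the ranges overlapped. The background of probes that were higher in all cross-breed controls was 16.1%. These 5 animals lay on slides 6 and 7, scanned on 1 day, and shared neither scanner nor software version with the cross-breed controls.

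To see whether the genes vary together among animals of 1 group, the 13 Holstein controls were used, and 15 pairs of genes were tested. Only BLVRB and S100B were correlated after adjustment, with Pearson's r = 0.82 (two-sided permutation test, n = 13, p = 0.00039, adjusted p = 0.00585) and Spearman's rho = 0.77 (permutation p = 0.00285, adjusted p = 0.0428). Without the 2 animals farthest from the median of BLVRB, r was 0.73. Within the only scan day that held 6 or more of these arrays (n = 6), r was 0.66 and rho 0.54, and the relation did not pass a two-sided exact permutation test (p = 0.147). The other 3 days held too few arrays to be tested on their own, and a test with day as a block was not run. S100B with SIRT3 (r = 0.52) and BLVRB with SIRT3 (r = 0.51) had rho of 0.01 and -0.17, and neither passed (adjusted permutation p = 0.243 and 0.294). C18 was the lowest animal for all 3 genes. Without the 2 animals farthest from the median of the first gene of each pair, C18 among them, both SIRT3 correlations changed. Then r was 0.23 for S100B with SIRT3 and -0.29 for BLVRB with SIRT3. C18 was not left out alone. The remaining pairs had r between -0.20 and 0.55. With scaling to the 75th percentile, 4 of 15 pairs passed.

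**Figure D4:**
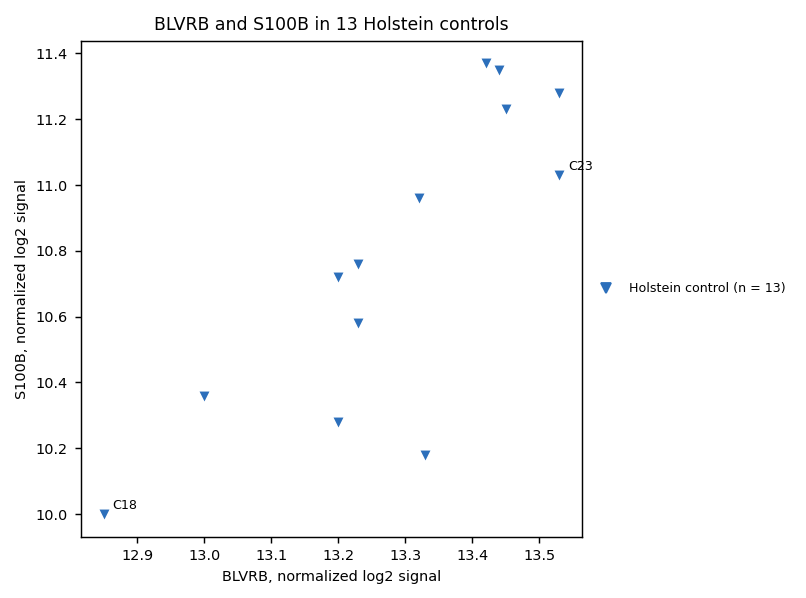
Normalized log2 signal of BLVRB (horizontal) against S100B (vertical) in the 13 Holstein controls, with 1 point per animal. Animals with more BLVRB had more S100B, from C18 at 12.85 and 10.00 upward (r = 0.82).

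Over all 43 arrays the pairs of genes had r from 0.57 (BLVRB and SIRT3) to 0.88 (NAT14 and S100B). The arrays come from sets of animals that differ in the levels of these genes and in part in slide and breed. The part of this grouping in the correlations was not tested. Among the 3 named genes whose pattern was most like each member, NDRG4 appeared for ANKRD35 (r = 0.95), S100B (0.90) and NAT14 (0.89). ARPC1A, a subunit of the complex that starts new actin branches, appeared for S100B (r = 0.95) and NAT14 (0.90). ECI1, an isomerase of mitochondrial fatty acid oxidation, was nearest to SIRT3 (r = 0.95), followed by PDK1, a kinase of the pyruvate dehydrogenase complex (0.92), and FNDC4 (0.92). BLVRB was nearest to LBX1, a homeobox factor of muscle precursors (r = 0.92), NQO2, a quinone reductase (0.91), and ALAD, an enzyme of haem synthesis (0.91). MEN1 was nearest to IL6R, the receptor of interleukin 6 (r = 0.93), ACAA2, a thiolase of mitochondrial fatty acid oxidation (0.91), and PCMTD2 (0.91). ANKRD35 was further like EHD4 (r = 0.94) and LDHB (0.91), NAT14 like METRN (0.90), and S100B like SH3KBP1 (0.90). No member was among the 3 nearest genes of another member.

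The other sirtuins were examined beside SIRT3. Of 6 tested between positive animals and cross-breed controls, SIRT2 and SIRT1 fell, by 0.67 (SE 0.13) and 0.50 (SE 0.15) on the log2 scale (limma adjusted p = 0.00188 and 0.0166), and the other 4 were not called, where 26.2% of all probes were called lower and 25.5% higher. The median change of the list was -0.15, against -0.03 for all probes. Of 9 tested genes whose proteins SIRT3 is known to deacetylate, 3 were called higher and 1 lower in the same comparison, against the same shares of 25.5% and 26.2% of all probes. ACSS1, which activates acetate in mitochondria, was higher by 2.24 (SE 0.53, adjusted p = 0.00543, limma), ACADM, a dehydrogenase of fatty acid oxidation, by 0.84 (SE 0.19), and CPS1, of the urea cycle, was called lower with a probe well above background on only 1 of 4 positive and 2 of 5 control arrays (medians of 3.52 and 4.41), so that no size is given. SOD2, the superoxide dismutase of mitochondria, was higher by 0.42 (SE 0.15). Against the Holstein controls, 7 of 9 rose and none fell, where 17.7% of all probes were called higher, ACSS1 by 2.99 (SE 0.45, limma adjusted p = 7.06e-05) and ACADM by 1.02 (SE 0.21). Between the control sets, 0 of the 9 were higher and 3 lower in the Holstein animals, where 48.4% of all probes were called in either direction, and IDH2, a dehydrogenase of the citric acid cycle, was -1.03 (SE 0.14) there, 1.16 (SE 0.14) between positive and Holstein animals and 0.13 (SE 0.15, not called) between positive animals and cross-breed controls. ACSS1 had medians of 15.02 in the positive animals, 14.81 in group 3 and 14.71 in group 4, but 13.10 in the cross-breed controls, 12.24 in the Holstein controls and 10.55 in group 2. Unlike those of SIRT3, its ranges overlapped, since group 3 began at 13.23 and group 4 at 13.56 while the cross-breed controls reached 14.10, and group 2 lay below most controls. ACADM had a median of 11.42 in group 4, below the 11.98 of the cross-breed controls and the 11.88 of the Holstein controls.

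Genes of haem synthesis and breakdown changed in both directions. Of 13 probes, 4 were higher and 6 lower in positive animals than in cross-breed controls, where 25.5% of all probes were called higher and 26.2% lower. ALAD, of an early step of haem synthesis, rose by 1.61 (SE 0.20, limma adjusted p = 9.63e-05). FECH, which inserts the iron, fell by 3.67 (SE 0.52, adjusted p = 0.000254), and BLVRA, the other biliverdin reductase, fell by 1.13 (SE 0.28, adjusted p = 0.00722) and by 1.06 (SE 0.26) with its 2 probes. Like BLVRB, ALAD was high in group 3 and not in group 4, with medians of 13.93 and 12.32 beside 12.12 in the cross-breed controls. The probe of FECH was well above background on 3 of 4 positive, 5 of 5 cross-breed and 8 of 13 Holstein arrays, so that its sizes are uncertain. The FECH difference between Holstein and cross-breed controls was -3.97 (SE 0.55), and it gave 0.30 (SE 0.67) between positive and Holstein animals.

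The rest of the S100 family was examined beside S100B. Of 12 S100 probes tested, 3 were higher and 5 lower in the positive animals than in the cross-breed controls, beside 25.5% and 26.2% of all probes. S100G was called higher (limma adjusted p = 0.000199), with medians of 6.63 and 3.12, but its probe was well above background on only 1 of 5 cross-breed control arrays, and S100A2 fell by 2.51 (SE 0.36). S100A9 was not well above background on any of the 5, and was at least 1.45-fold higher (limma adjusted p = 0.00333), a bound taken against the dimmest signal well above background on each array. Against the Holstein controls none of the 12 rose and 8 fell, among 18.7% of all probes called lower. S100G was as high in Holstein controls, with a median of 7.09, as in the positive animals, with 6.63.

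Of 14 tested probes for partners of menin, 2 were higher and 4 lower in the positive animals than in the cross-breed controls, beside 25.5% and 26.2% of all probes. JUND fell by 2.05 (SE 0.37, limma adjusted p = 0.00110), and by 0.93 (SE 0.30, adjusted p = 0.0215) against the Holstein controls. Both probes that rose belong to KMT2A and were not well above background on any cross-breed control array, which gives at least 2.39-fold and at least 1.33-fold. KMT2A has 17 of the 26 probes of the list under 1 gene number, and they did not move together, since another of them fell, so that no direction is given for this gene.

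Among 5 tested N-acetyltransferase probes, NAA20 was higher by 0.56 (SE 0.21), and NAA15 fell by 0.76 (SE 0.14). NAT9 was called higher too, with medians of 5.11 and 3.89, but was well above background on only 12 of 43 arrays, 1 of them a cross-breed control. Among 28 tested probes of other ankyrin repeat domain genes, 5 rose and 11 fell, beside 25.5% and 26.2% of all probes. ANKRD13D was higher by 1.65 (SE 0.16), and ANKRD10 fell by 1.52 (SE 0.28). ANKRD12 was higher by 1.68 (SE 0.19) with 1 probe and not called with its other probe, which gave 0.07 (SE 0.24). In group 4 the rising probe of ANKRD12 and that of ANKRD13D had medians of 9.23 and 8.15, near the 9.17 and 8.01 of the cross-breed controls and below the 10.27 and 8.82 of the Holstein controls.

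Muscle markers were well above background in all animals, and MB, the oxygen-binding protein of muscle, had a mean log2 signal of 18.06. Of 11 probes, 5 were higher and 5 lower in the positive animals than in the cross-breed controls. The background for this and the other cell type lists in that comparison was 25.5% of probes called higher and 26.2% lower. MYH1, a fast myosin heavy chain, fell by 7.32 (SE 0.98) and by 4.25 (SE 0.99) with its 2 probes, and TNNT3, the fast troponin T, by 2.72 (SE 0.54). MYH7, the slow myosin heavy chain, was higher by 0.99 (SE 0.21) and TNNT1, the slow troponin T, by 1.11 (SE 0.16), and both were also higher in Holstein than in cross-breed controls, by 0.74 (SE 0.14) and 0.60 (SE 0.17). ACTA1, skeletal muscle actin, was higher by 1.41 (SE 0.19) and MB by 0.82 (SE 0.21), and the 2 probes of TTN, which encodes titin, moved in opposite directions. With the second of these probes, MYH1 was 15.25 in S21 but 8.96 in S54, 11.24 in S56 and 10.42 in S57, while the 5 cross-breed controls lay at 15.34 to 16.06. How fibre composition takes part in the levels of the 6 genes was not tested.

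Markers of fat moved with S100B against the cross-breed controls. Of 5 tested adipocyte probes, 4 were higher in the positive animals: FABP4 by 5.23 (SE 0.75, limma adjusted p = 0.000261), CIDEC by 4.09 (SE 0.48) and LPL by 1.70 (SE 0.25), and ADIPOQ at least 1.93-fold (adjusted p = 0.00235, limma), since it was not well above background on any cross-breed control array. FABP4 was well above background on 3 of those 5, so that the sizes of its differences from the cross-breed controls are uncertain. PLIN1 was not called, and LEP did not pass the filter on dim probes. The linear signal summed over the list lay between 10275 and 13678 for positive, 2249 and 4778 for cross-breed and 5073 and 14929 for Holstein animals, and the probe of LPL had the highest signal in this sum, which sets no level of 1 gene against another. FABP4 was also higher in Holstein than in cross-breed controls, by 5.03 (SE 0.73), and its difference between positive and Holstein animals was 0.21 (SE 0.67, adjusted p = 0.828, limma), where S100B differed by 1.86 (SE 0.24). In group 2 the fat markers parted. FABP4 and CIDEC had medians of 9.02 and 8.09, nearer to the 9.78 and 9.32 of the positive animals than to the 4.87 and 5.16 of the cross-breed controls. LPL, PLIN1 and ADIPOQ had 12.13, 5.07 and 2.14 there, nearer to the 11.63, 4.99 and 2.21 of the cross-breed controls than to the 13.36, 5.89 and 5.11 of the positive animals, as S100B was with 9.97. The median summed signal of the list was 4930 in group 2, 3333 in the cross-breed controls, 12153 in the positive animals, 7584 in the Holstein controls, 16022 in group 3 and 17612 in group 4. The part of fat cells in the S100B result was not tested. LPL alone was called higher against the Holstein controls, by 0.79.

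**Figure D5:**
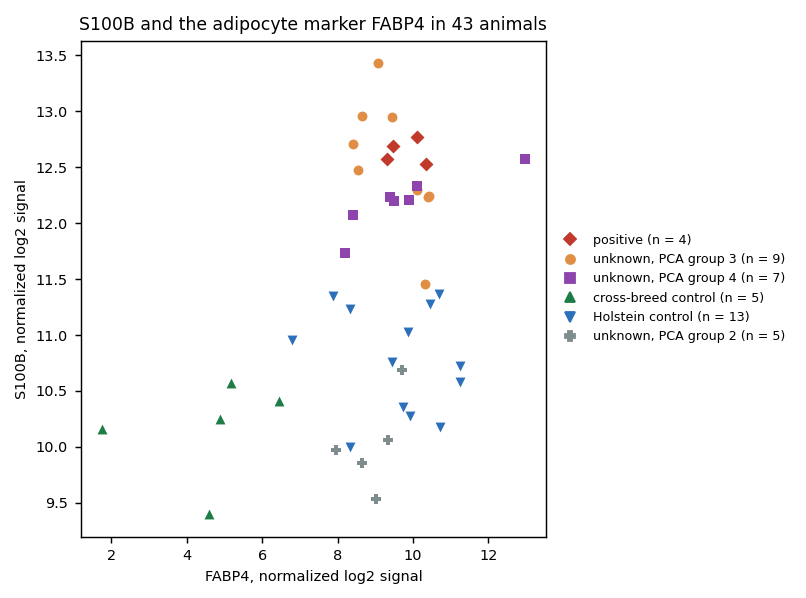
Normalized log2 signal of the adipocyte marker FABP4 (horizontal) against S100B (vertical) in 43 animals, with 1 point per animal. Holstein controls and unknown animals of group 2 reach FABP4 signals like those of the positive animals, while their S100B signals, 9.53 to 11.37, stay below all positive animals and all animals of groups 3 and 4. In group 2 this holds for FABP4 and not for LPL, PLIN1 and ADIPOQ, whose medians lay nearer to the cross-breed controls, and in the Holstein controls the median of LPL, 12.47, also lay nearer to them.

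Of the Schwann cell markers, 1 of 6 tested probes was higher and 1 lower in the positive animals than in the cross-breed controls, and their summed linear signal lay between 2489 and 4933 for the former and between 4381 and 7130 for the latter. NGFR was called higher with a probe well above background on 12 of 43 arrays, 1 of them a cross-breed control (medians of 5.19 and 4.31), and its other probe was not called. PMP22, whose probe had the highest signal in the sum, fell by 0.75 (SE 0.22). Among chondrocyte probes 2 of 3 fell, SOX9 with an adjusted p of 0.0203 in limma, and ACAN, which was not well above background on any positive array, at least 3.70-fold with 1 probe, while its other probe was not called (0.14, SE 0.26).

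Among endothelial markers, VWF divided the animals into the same higher and lower sets as SIRT3 and S100B. Of 4 probes, 3 were higher in the positive animals than in the cross-breed controls, VWF by 1.55 (SE 0.27, limma adjusted p = 0.000995), KDR by 1.07 (SE 0.23) and CDH5 by 0.74 (SE 0.22), and 3 were higher than in the Holstein controls, where 17.7% of all probes were, VWF by 2.37 (SE 0.40). PECAM1 was not called in either comparison. VWF ranged from 11.39 to 12.63 for the positive animals, 10.99 to 13.01 in group 3 and 11.20 to 12.57 in group 4. It was 9.71 to 10.70 among cross-breed controls, 8.06 to 10.55 among Holstein controls and 8.81 to 9.53 in group 2, without overlap between the higher and the lower sets. KDR and CDH5 overlapped, since group 3 began at 9.26 and 10.05 while the cross-breed controls reached 9.53 and 10.38. The part of vessel cells in the levels of the 6 genes was not tested.

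Both tested haemoglobin probes rose against the cross-breed controls, HBA by 1.71 (SE 0.23) and HBB with an adjusted p of 0.00219 in limma, and neither against the Holstein controls (HBA 0.04, SE 0.42). Among leukocyte probes, 0 of 5 rose and CD74 fell by 0.79 (SE 0.24). Of 6 fibroblast probes, 1 rose and 3 fell, COL1A1 by 2.35 (SE 0.51), COL1A2 by 1.90 (SE 0.46) and COL3A1 by 1.77 (SE 0.63). The part of these cell types in the results was not tested.

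Beside the median change of -0.03 over all probes between positive animals and cross-breed controls, the medians of the tested probes were 0.30 for the SIRT3 targets, 0.17 for the haem genes and 0.33 for the N-acetyltransferases. They were -0.27 for the S100 family, -0.37 for the partners of menin and -0.17 for the ankyrin repeat genes. Among the cell type lists they were 2.62 for adipocytes, 1.36 for red blood cells, 0.90 for endothelium, -0.18 for Schwann cells, -0.29 for leukocytes, -0.51 for muscle, -0.97 for fibroblasts and -1.40 for chondrocytes. The adipocyte median is the fitted value of ADIPOQ, for which only a bound holds. With this gene at its bound, LPL held the median, at 1.70.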

How the data were processed

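Agilent single-colour bovine arrays of 43 animals were analysed. Per the file headers, the deposited intensity of each spot (gProcessedSignal) had been corrected for background and spatial trends by the authors with Feature Extraction (9.1.3.1, 9.5.1.1 or 9.5.3.1). The authors' value table of normalized signal was an alternative. For the main values, log2 gProcessedSignal was brought to a common scale with the cyclic loess of limma 3.58.1 (R 4.3.3, 3 iterations) over all gene and spike-in spots. Spots flagged as outliers were then left out, and the others were averaged per probe. Probes with log2 signal under 4 on at least 30 arrays (5121 of 21475) were left out. Groups came from the labels. Each comparison was fitted on its 2 groups with lmFit and eBayes, with Benjamini-Hochberg adjustment over 16354 probes and calls at an adjusted p under 0.05. The fits were tested on simulated data. Correlations used 100000 permutations. Probes were named through RefSeq accessions, gene numbers or symbols (16494 of 21475). Named genes were the 6 members, their 3 nearest genes, MRPS5 and, for each list, up to 3 probes with the largest called change between positive animals and cross-breed controls. PLIN1, LEP, LPL, PECAM1, SOD2, MYH7, TNNT1, ACTA1, MB, TTN and IDH2 were named after their values were seen, to complete small counts. The members, lists and tests were chosen with earlier results of these data known. The number of arrays limits precision. The labels do not tie samples to separate pens or herds, and p-values measure the spread between these animals. Arrays were left out in turn, and other normalizations, filters, blocks and a reference probe were tried. Another planned reference is not reported here.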

Additional observations from a re-analysis of the deposited data

How the results depend on the processing

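No paired analysis was possible because replicate numbers only follow the order of the samples, and blocks of slide and scan day were used instead. The 6 genes in 5 comparisons gave 570 values under alternatives, of which 542 kept direction and side of the threshold. All 6 stayed called between positive animals and cross-breed controls under every alternative, but 5 had a FC of 2 with loess run over all pairs of arrays (MEN1 0.85 on the log2 scale). Between positive and Holstein animals 6 stayed called, except relative to the MRPS5 probe (3, an alternative chosen after seeing the data). Between Holstein and cross-breed controls the count of 2 fell to 1 with loess run over all pairs of arrays and 0 with all 43 arrays in a common fit, and ranged from 0 to 2 when single cross-breed controls were left out. Between unknown animals and cross-breed controls the count of 3 fell to 1 with scan day as a random block and 0 without 5 unknown animals with low spike-in signals, and ranged from 1 to 3 when single controls were left out. The count of correlated pairs, 1, rose to 4 with scaling to the 75th percentile. SIRT3 between Holstein and cross-breed controls turned from -0.20 to 0.087 relative to MRPS5, and MEN1 between positive and unknown animals from 0.66 to -0.015 on shared slides. The causes were not tested.

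The number of probes called between positive animals and cross-breed controls, 8458, moved to between 4915 (common fit) and 12174 (no filter on dim probes, with 7589 at a FC of 2), and between positive and Holstein animals it moved from 5950 to between 3487 (normexp) and 9893 (no filter on dim probes). It moved from 8 to between 0 (shared slides) and 1562 (no filter) for positive against unknown animals, and from 3611 to between 1915 (scan day block) and 5054 (normexp) for unknown animals against cross-breed controls. With normexp, calls with a FC of 2 fell from 4597 to 1362 for positive animals against cross-breed controls, from 3361 to 1391 for Holstein against cross-breed controls, from 2911 to 463 for positive against Holstein animals and from 1706 to 830 for unknown animals against cross-breed controls. The median change of all probes moved from -0.03 to -0.26 with loess run over all pairs of arrays between positive animals and cross-breed controls, and from -0.05 to -0.53 relative to MRPS5 between positive and Holstein animals. With scaling to the 75th percentile these medians turned positive, to 0.11 and 0.20.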
